A study of Mus musculus with 33 samples.

Results

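Lungs that had received the vector AAV-hSPBTLR9i into the airway a second time were compared with lungs of mice kept on doxycycline, 7 days after the second dose. The comparison covers 8 of the 33 samples of the study, 4 repeat AAV-hSPBTLR9i lungs and 4 on-doxycycline lungs, chosen by their treatment label, and all 773 mouse genes of an nCounter panel. nCounter counts RNA molecules by hybridized fluorescent barcodes, without amplification. All mice carried CCSP-rtTAtg/(teto)7Sftpb/Sftpb-/- on the FVB/N strain, so they lacked their own gene for surfactant protein B and made the protein from a transgene that needs doxycycline and is driven in the airway epithelium by the CCSP promoter. The on-doxycycline mice stayed on the drug to day 97 and had, per the study's design, no treatment. The repeat AAV-hSPBTLR9i mice received the vector intratracheally on day 0, lost doxycycline on day 7, received the vector again on day 90 and were killed on day 97. The same vector given on day 0 alone, AAV-hSPB given on both days, and removal of doxycycline on day 94 without vector gave further groups of 4 used below, and single AAV-hSPB completed the 24 lungs of the fit. Each group held 2 female lungs (replicates 1 and 2) and 2 male lungs (replicates 3 and 4). The labels give no age, do not spell out the name AAV-hSPBTLR9i and do not say that each right lung came from its own mouse, so the spread behind each p-value is that between samples and may be technical.

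Because both groups differ in vector, in airway dosing, in the time since that dosing and in doxycycline since day 7, none of these can be told apart in the comparison. The on-doxycycline lungs are Samples 1 to 4 and the repeat lungs Samples 21 to 24, and the labels do not say whether all were measured in one run. In bulk lung RNA, more cells of a type and more RNA per cell cannot be told apart either.

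Adeno-associated virus (AAV) is a small virus with a DNA genome that is used to carry genes into cells. Unmethylated CpG DNA is sensed in endosomes by Toll-like receptor 9 (TLR9), which signals through the adaptor MyD88 toward type I interferon and inflammatory cytokines. Capsid proteins that are met again can recall T and B cells. Interferon-gamma, made by activated T cells and NK cells, acts on nearby cells and raises the chemokines CXCL9 and CXCL10, which call in T cells that carry the receptor CXCR3. It also raises guanylate-binding proteins and the machinery that loads peptides on MHC molecules.

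The promoters of 4 of the genes that rose show where letters of the interferon-stimulated response element stand. They were taken by rank of log2 difference among the named genes called higher whose promoter holds these letters. Genes below background in all lungs compared were passed over. Each printed promoter therefore holds a match by choice, and genes that rose without one are not shown. The letters searched were GAAA, any 2 bases, then GAAA, on either strand, and the matches are in capitals (TTTC, any 2 bases, then TTTC where the match lies on the other strand). Each window runs 5′ to 3′ on the strand of the gene, from 250 bases before its start to 50 after it, from RefSeq on GRCm38.p6. The promoters lie at chr5:92348840-92349139 on the minus strand for Cxcl10, chr16:11313559-11313858 on the plus strand for Tnfrsf17, chr3:142559794-142560093 on the plus strand for Gbp3 and chr3:142496684-142496983 on the plus strand for Gbp5.
Cxcl10: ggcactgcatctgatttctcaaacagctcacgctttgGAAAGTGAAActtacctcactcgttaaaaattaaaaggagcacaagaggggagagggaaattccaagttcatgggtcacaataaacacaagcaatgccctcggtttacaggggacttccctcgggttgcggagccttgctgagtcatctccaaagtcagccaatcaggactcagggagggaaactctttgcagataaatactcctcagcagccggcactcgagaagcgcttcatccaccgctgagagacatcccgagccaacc
Tnfrsf17: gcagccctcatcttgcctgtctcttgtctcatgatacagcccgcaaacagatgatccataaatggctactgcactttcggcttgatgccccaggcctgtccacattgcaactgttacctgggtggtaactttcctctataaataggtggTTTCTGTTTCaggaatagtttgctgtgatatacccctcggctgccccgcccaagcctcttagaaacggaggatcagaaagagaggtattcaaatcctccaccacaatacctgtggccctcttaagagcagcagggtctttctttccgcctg
Gbp3: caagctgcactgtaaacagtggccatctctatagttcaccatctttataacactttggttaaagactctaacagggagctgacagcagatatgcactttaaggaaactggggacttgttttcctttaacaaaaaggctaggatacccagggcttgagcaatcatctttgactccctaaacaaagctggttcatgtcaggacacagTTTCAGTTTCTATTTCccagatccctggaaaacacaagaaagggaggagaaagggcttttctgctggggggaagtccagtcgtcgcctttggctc
Gbp5: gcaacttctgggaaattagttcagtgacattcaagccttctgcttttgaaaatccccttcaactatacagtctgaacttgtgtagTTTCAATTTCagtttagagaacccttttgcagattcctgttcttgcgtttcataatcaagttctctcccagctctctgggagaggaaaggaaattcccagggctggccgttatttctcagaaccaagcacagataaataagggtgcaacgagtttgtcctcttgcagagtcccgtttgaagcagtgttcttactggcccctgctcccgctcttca
The match began 101 bases before the start of Tnfrsf17 and 165 before that of Gbp5, and in Cxcl10 it lies near the 5′ end of the window. In Gbp3 there were 2 overlapping matches, which began 45 and 39 bases before the start. This motif was held by 3.99% of all 27025 genes with a RefSeq promoter. Only 67 of the 85 genes called higher (78.8%) and 599 of the 773 panel genes (77.5%) matched a promoter. Both lie under the 80% needed for a share, so no share is given for either. The second motif searched was TTCNNNGAA, the core of the interferon-gamma-activated site, which can overlap the first one. It was held by 9.55% of those 27025 genes, and of the printed ones by that of Gbp5. A match is a description of letters and no evidence of binding.

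In all, 85 genes were called higher and 4 lower after repeat AAV-hSPBTLR9i by limma (adjusted p under 0.05), which is 11.0% and 0.517% of the 773 genes tested. Most measured genes were called higher in the lists of CXCR3 chemokines, guanylate-binding proteins, antigen presentation, checkpoint genes and B and plasma cell genes. Outside these lists Itln1, Ccl8, Irf4 and Lax1 were among the large single rises. Of the genes called lower, the heat shock chaperones Hspb1 and Hsp90aa1 fell furthest. Levels are log2 normalized counts throughout, and 1 log2 unit is a 2-fold difference. Of these higher calls 38 were over 1 log2 unit, 35 between 0.5 and 1, and 12 under 0.5, counting 3 genes below background in all 8 lungs. Of the 85 genes called higher, 81 had all 4 repeat lungs above all 4 on-doxycycline lungs, and all 4 of those called lower had no overlap, against 18.1% and 4.4% of all genes that separated upward and downward.

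Values of all genes shifted a little between the groups, and the lower calls moved with the scaling. As deposited, the median difference over all genes was 0.11. Scaling by the median gene of each lung gave -0.10, with 53 genes called higher and 37 lower. Scaling by all 12 reference genes gave 0.03, with 61 called higher and 18 lower. Of the 85 higher calls 46, and of the 4 lower calls 2, passed under both scalings and also when each of the 8 lungs was left out in turn. Without on-doxycycline replicate 4, 53 genes were called higher, and without repeat replicate 2, 56.

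The recovered total count ran from 676906 to 832041 per on-doxycycline lung and from 851635 to 1131011 per repeat lung, and 100 to 110 and 65 to 84 genes had fewer than 20 counts. Background, the mean plus 2 SD of the 8 dimmest control probes of a lung, lay between 4.10 and 4.59 and between 4.25 and 4.80 log2 units. Of the 65 genes at or below it in all 8 lungs 48 had a positive difference (median 0.34). The part of this difference in depth in the results was not tested. On-doxycycline replicate 1 stood apart by liver transcripts. Its level of Serpina1a, an antitrypsin gene of liver, was 15.41 against 9.03 to 9.59 in the others of its group. Over all genes its log2 levels correlated with those of the others at 0.9491 to 0.9621. The others of its group reached 0.9741 to 0.9803 with their nearest lung, and repeat lungs correlated among themselves at 0.9790 to 0.9885. Leaving this lung out gave 75 genes higher and 4 lower. Of the 85 higher calls 70 were kept, and of the 4 lower calls 3. Of the lung epithelium markers only Cdh1 and Lamp3 were measured, and both were above background in all 8 lungs.

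**Figure D1:**
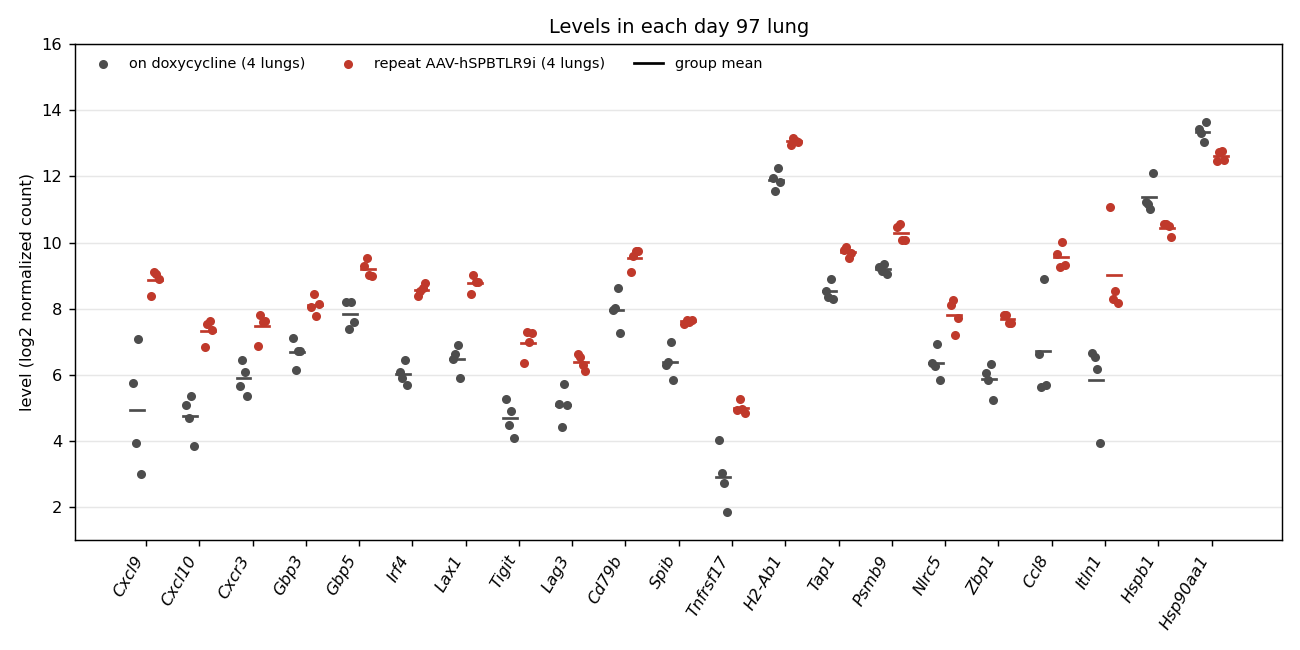
Level (y axis, log2 normalized count) of 21 genes (x axis) in the 4 on-doxycycline lungs (grey) and the 4 repeat AAV-hSPBTLR9i lungs (red), with lines at the group means. All genes shown except Hspb1 and Hsp90aa1 lie higher in every repeat lung than in every on-doxycycline lung, and those 2 lie lower.

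The chemokines that attract T cells and their receptor had the highest median of all gene lists. Cxcl9, a ligand of CXCR3, had log2 levels of 5.74, 3.94, 7.07 and 3.02 in the on-doxycycline lungs and of 8.38, 9.11, 9.04 and 8.89 in the repeat lungs. Every repeat lung was higher than the highest on-doxycycline lung, and the on-doxycycline lungs spread far more widely. The difference was 3.91 ± 0.67 log2 units (SE, n = 4 per group, limma adjusted p = 0.000648). On doxycycline 2 of 4 lungs were not above background, and with these raised to it the difference was 3.54 (11.7-fold).

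Cxcl10, another ligand of CXCR3, stood at 5.08, 4.71, 5.36 and 3.85 on doxycycline and at 6.85, 7.54, 7.64 and 7.34 after the repeat. The groups did not overlap, and the difference was 2.59 ± 0.44 (adjusted p = 0.000648). On-doxycycline replicate 4 was below its background, and with it raised to that level the difference was 2.53 (5.77-fold). The receptor gene Cxcr3 itself was at 5.68, 6.44, 6.09 and 5.38 on doxycycline and at 6.87, 7.81, 7.60 and 7.63 after the repeat. All repeat lungs were again higher, by 1.58 ± 0.31 (2.99-fold, adjusted p = 0.00211). Of the 4 measured genes of this list 3 rose (median 2.21, against 0.11 over all genes).

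Guanylate-binding proteins attack pathogens inside cells and are induced by interferon. Gbp3 had levels of 7.13, 6.16, 6.71 and 6.72 on doxycycline and of 8.06, 8.44, 7.80 and 8.15 after the repeat, and its difference was 1.43 ± 0.23 (2.7-fold, adjusted p = 0.000449). Gbp5, which also promotes inflammasome assembly, had 8.21, 7.38, 8.20 and 7.59 against 9.30, 9.54, 9.01 and 8.99 (1.37 ± 0.29, adjusted p = 0.00367). Neither gene had overlapping groups. Gbp2 rose by 1.01 ± 0.18 (adjusted p = 0.000689), so that 3 of the 4 measured genes of the list rose (median 1.24).

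Interferon genes themselves gave little signal. Ifng was not above background in any on-doxycycline lung and in 2 of 4 repeat lungs. Its measured difference was 1.30 ± 0.46 (adjusted p = 0.0706), and 0.27 with lungs raised to background. It passed in voom on the recovered counts (1.24, adjusted p = 0.0471) and in the fit with the compared groups alone (1.30, adjusted p = 0.0108). None of the 8 lungs had Ifnb1 above background. Ifna4 was called (1.66 ± 0.41, adjusted p = 0.00885) but was likewise below background in all 8, as were the called genes Ccr8 and Cd70, so these 3 calls are not read as rises. Ifna4 was the only one of 11 interferon and receptor genes called. Ccr8 is a chemokine receptor and Cd70, named after its values were seen, a ligand of the TNF family, with measured differences of 1.57 and 1.30.

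Of 28 measured antiviral effectors, genes that type I interferon is known for, 3 rose (median 0.22), which are Zbp1, Mx1 and Samhd1. That share is near the 11.0% of all genes called higher. Zbp1, a sensor of left-handed nucleic acid that can start cell death, had levels of 6.05, 5.85, 6.34 and 5.24 on doxycycline and of 7.82, 7.81, 7.58 and 7.57 after the repeat. The repeat lungs lay within a narrow band above all on-doxycycline lungs (1.82 ± 0.27, 3.53-fold, adjusted p = 0.000336). Mx1, a GTPase that blocks viruses, rose by 1.09 ± 0.30 (adjusted p = 0.0193), but not on the median gene (adjusted p = 0.0666) and without repeat replicates 2 or 3 or on-doxycycline replicate 4 (adjusted p = 0.0559, 0.0645 and 0.0725). Samhd1, which depletes nucleotides, rose by 0.34 ± 0.09 (adjusted p = 0.0193), which did not hold under both scalings (adjusted p = 0.43 and 0.0705) and without repeat replicates 2 or 4 or on-doxycycline replicate 1 (adjusted p = 0.0538 to 0.0758).

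Widely used members of the same response had differences that missed the threshold. Isg15, a ubiquitin-like modifier, had 0.51 ± 0.26 (adjusted p = 0.236). Ifit1, which binds foreign RNA ends, had -0.31 ± 0.22 (adjusted p = 0.406). Irf7, a factor for interferon-alpha genes, had 0.30 ± 0.21 (adjusted p = 0.406). In all 3 the lungs of both groups overlapped. Among the interferon regulatory factors only Irf4 of 5 measured rose. Stat2, a factor of type I interferon signalling, had a difference of 0.42 ± 0.12 (adjusted p = 0.0203), lost under both scalings (adjusted p = 0.25 and 0.0539) and without any of repeat replicates 1 and 2 and on-doxycycline replicates 2 and 4 (adjusted p = 0.0542 to 0.0809).

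The gene of the receptor whose name the vector carries was not called. Tlr9 had log2 levels of 5.43, 5.25, 6.20 and 4.98 on doxycycline and of 5.73, 6.17, 6.52 and 6.41 after the repeat. Its lungs overlapped, because on-doxycycline replicate 3 was higher than 2 of the repeat lungs, and the difference was 0.74 ± 0.28 (adjusted p = 0.0931). Without that lung it was 0.99 and passed (adjusted p = 0.0206). Myd88, its adaptor, had 0.06 ± 0.22 (adjusted p = 0.904), with a sign that turned under both other scalings (-0.14 and -0.01). Of 19 Toll-like receptor and adaptor genes Tlr1 alone rose (median 0.01). Tlr1, a partner of TLR2 for lipopeptides, rose from 6.63, 6.33, 7.07 and 6.19 to 7.38, 7.61, 7.18 and 7.65 (0.90 ± 0.20, adjusted p = 0.00522). Of 11 cytosolic sensors Aim2 and Zbp1 rose, against 11.0% of all genes. Aim2, which binds DNA in the cytosol and starts an inflammasome, went from 7.02, 7.18, 7.94 and 6.90 to 8.21, 8.24, 7.98 and 8.14 (0.88 ± 0.19, adjusted p = 0.00344). Its groups touched closely, with the lowest repeat lung just above on-doxycycline replicate 3.

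Aim2 was 1 of 3 inflammasome genes of 13 that rose, against 11.0% of all genes. The median of this list was 0.11, like that over all genes. Casp1, the protease that matures interleukin-1 beta, rose by 0.85 ± 0.19 (adjusted p = 0.00607), with 6.55 to 7.20 on doxycycline and 7.66 to 7.96 after the repeat. Pycard, the adaptor between sensor and Casp1, rose by 0.97 ± 0.26 (adjusted p = 0.0174), a call lost without on-doxycycline replicate 4 (0.87, adjusted p = 0.0747). The cytokine gene Il1b had -0.35 ± 0.49 (adjusted p = 0.724). None of 24 acute cytokine genes was called. Tnf, a cytokine of early inflammation, had 0.77 ± 0.32 (adjusted p = 0.12), and Il6 0.57 ± 0.75 (adjusted p = 0.706) with 1 and 2 lungs above background in the respective groups. Il10, a restraining cytokine, had 1.41 ± 0.52 (adjusted p = 0.0804) and was above background in no on-doxycycline lung. Without on-doxycycline replicate 3 the Il10 difference was 1.74 and passed (adjusted p = 0.0367).

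Antigen presentation by MHC class I rose across most of its parts. Of 13 measured genes of the list, which also takes in the immunoproteasome and the peptide transporter, 10 rose (median 0.82). Tap1, a subunit of that transporter, was at 8.54, 8.36, 8.90 and 8.30 on doxycycline and at 9.78, 9.87, 9.52 and 9.67 after the repeat (1.19 ± 0.19, 2.27-fold, adjusted p = 0.000475). Psmb9, an immunoproteasome subunit, was at 9.27, 9.15, 9.36 and 9.04 and at 10.46, 10.55, 10.07 and 10.08 (1.09 ± 0.16, adjusted p = 0.000336). For both genes the groups lay well apart.

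Psmb8, another such subunit, rose by 0.82 ± 0.14 (adjusted p = 0.000668). Nlrc5, the transactivator of class I genes, had 6.35, 6.28, 6.94 and 5.85 on doxycycline and 8.12, 8.25, 7.19 and 7.71 after the repeat (1.46 ± 0.32, 2.76-fold, adjusted p = 0.00444). The 2 male repeat lungs were its lower ones, and they still exceeded all on-doxycycline lungs. H2-M3, a class I molecule that presents formylated peptides, rose by 1.03 ± 0.18 (adjusted p = 0.000648). The classical molecule H2-D1, named after its values were seen, was at 12.91 to 13.14 on doxycycline and at 13.60 to 14.34 after the repeat (0.97 ± 0.18, adjusted p = 0.000896). H2-Q10, a class I gene secreted by liver, had -1.28 ± 1.01 (adjusted p = 0.462). Its level was 11.09 in on-doxycycline replicate 1 and 3.48 to 4.25 in the others of that group, and without that lung the difference was 0.51.

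MHC class II genes, which present peptides to CD4 T cells, followed with 4 of 7 higher (median 0.95). H2-Ab1, a class II beta chain, had 11.95, 11.55, 12.26 and 11.83 against 12.94, 13.17, 13.06 and 13.04 (1.16 ± 0.19, 2.23-fold, adjusted p = 0.000593). The repeat lungs differed among themselves far less than the on-doxycycline lungs. H2-Eb1, another beta chain, rose by 1.18 ± 0.26 (adjusted p = 0.00481), and H2-DMa, which exchanges peptides on class II molecules, by 0.95 ± 0.15 (adjusted p = 0.000368). H2-Ob, which restrains that exchange in B cells, rose by 1.02 ± 0.29 (adjusted p = 0.0262). It no longer passed on the median gene (adjusted p = 0.0696), without any on-doxycycline lung but replicate 3 and without any repeat lung but replicate 1 (adjusted p = 0.0644 to 0.1).

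**Figure D2:**
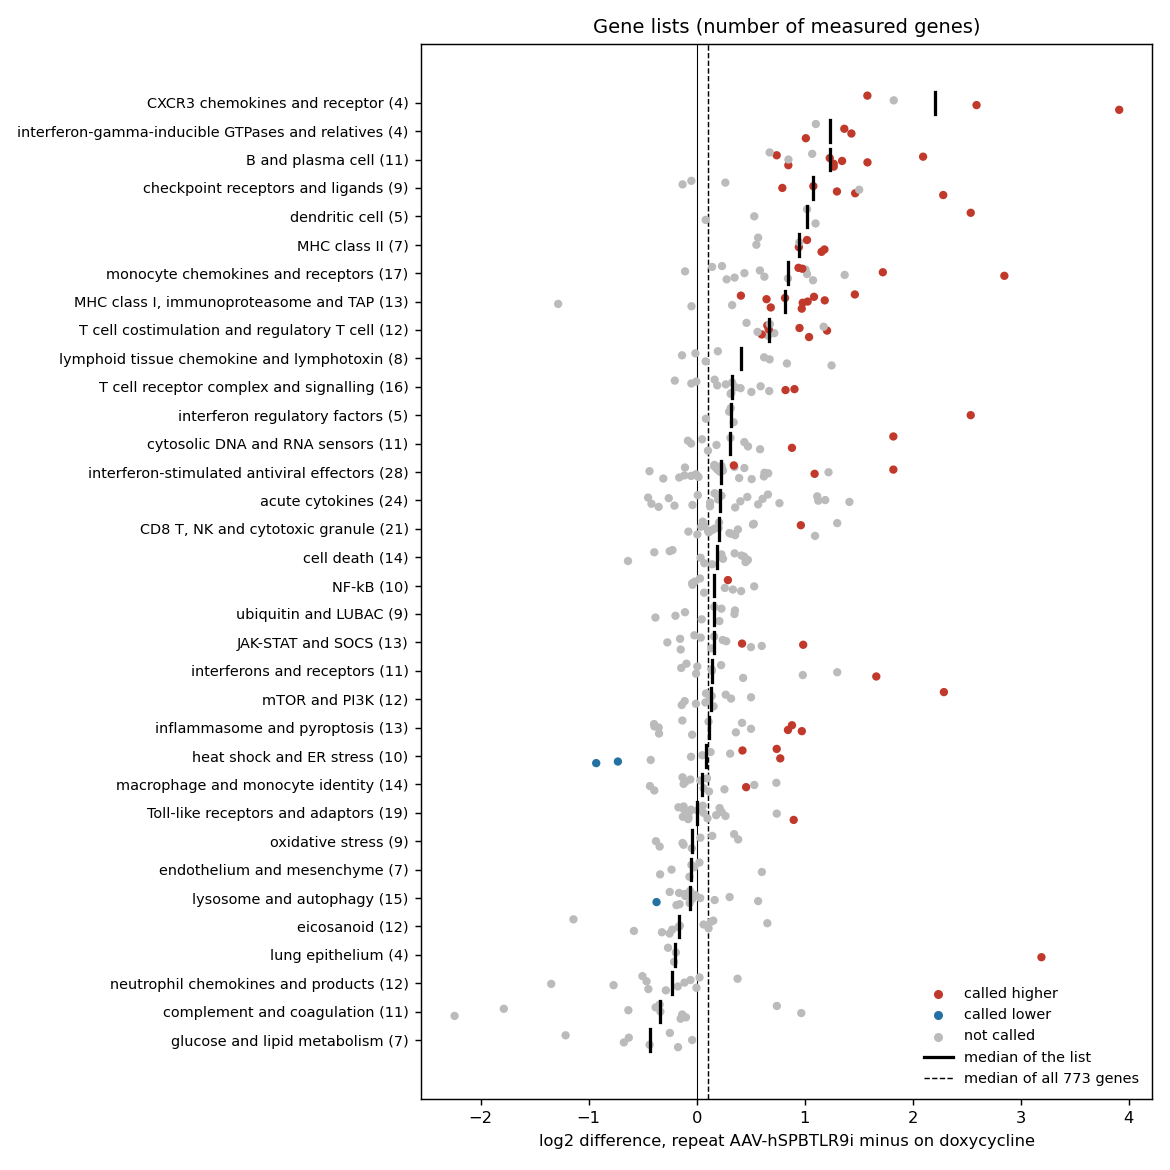
Log2 difference between repeat AAV-hSPBTLR9i and on doxycycline (x axis) of each measured gene in the gene lists with at least 4 measured genes (y axis, number in brackets), the liver transcripts left out, with the median of each list as a bar. Among the lists drawn, CXCR3 chemokines and receptor lie highest with a median of 2.21, glucose and lipid metabolism lowest with -0.44, and the dashed line is the median of all 773 genes (0.11). Ifna4, red among the interferons, was not above background in any of the 8 lungs.

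Genes that restrain T cells rose next to those that activate them. Of 9 measured checkpoint genes 5 rose (median 1.08). Tigit, an inhibitory receptor of T and NK cells, was at 5.27, 4.50, 4.91 and 4.10 on doxycycline and at 6.37, 7.28, 6.99 and 7.26 after the repeat. Its groups lay more than 1 log2 unit apart, and the difference was 2.28 ± 0.40 (4.86-fold, also with on-doxycycline replicate 4 raised to its background, adjusted p = 0.000648). Ctla4, which competes with CD28 for its ligands, was at 4.61, 4.02, 4.15 and 3.66 and at 5.39, 5.93, 5.29 and 5.71 (1.47 ± 0.35, adjusted p = 0.00775). On doxycycline 2 of its 4 lungs were not above background, and with these raised the difference was 1.28.

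Lag3, an inhibitory receptor that binds MHC class II, rose from 5.13, 4.44, 5.74 and 5.10 to 6.63, 6.54, 6.31 and 6.12 (1.30 ± 0.27, adjusted p = 0.00324). The ligands of PD-1 moved less. Cd274, which encodes PD-L1, rose by 0.79 ± 0.21 (adjusted p = 0.0149), lost without repeat replicate 1 or on-doxycycline replicate 4 (adjusted p = 0.0533 and 0.0754). Pdcd1lg2, which encodes PD-L2 and is named after its values were seen, had 1.08 ± 0.28 (adjusted p = 0.0149) with overlapping lungs, lost without repeat replicate 4 or on-doxycycline replicates 1 or 4 (adjusted p = 0.052, 0.0586 and 0.0811).

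Costimulatory genes gave fewer firm calls. Cd28, the main costimulatory receptor of T cells, was at 6.73, 6.95, 6.74 and 6.19 on doxycycline and at 7.58, 8.05, 7.49 and 7.65 after the repeat, without overlap (1.04 ± 0.18, 2.06-fold, adjusted p = 0.000648). Tnfrsf4, which encodes OX40 of activated T cells, rose by 0.95 ± 0.23 (adjusted p = 0.00775), or 0.92 with 2 on-doxycycline lungs raised to background. Of the 12 genes of the costimulatory and regulatory list 6 rose (median 0.67), but 2 under each of both scalings, 3 without on-doxycycline replicate 4, 4 without on-doxycycline replicate 1 and 2 without repeat replicate 2. The regulatory T cell factor Foxp3 had 0.68 ± 0.43 (adjusted p = 0.355), with 2 on-doxycycline lungs not above background.

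Markers of T cells as such were not called against on doxycycline. None of the 6 markers Cd3d, Cd3e, Cd3g, Cd247, Lck and Zap70 passed (median 0.43), and their summed level ran from 9.72 to 10.46 on doxycycline and from 10.31 to 10.90 after the repeat. Of 16 genes of the T cell receptor complex and its signalling Cd6 and Cd4 rose, a share near the 11.0% of all genes called higher. Cd6, a surface receptor of T cells, went from 5.86, 6.10, 5.99 and 5.55 to 6.47, 7.15, 6.32 and 7.18 (0.91 ± 0.20, adjusted p = 0.0041). Cd4, the coreceptor for class II, rose by 0.82 ± 0.23 (adjusted p = 0.0221), but not on the median gene (adjusted p = 0.0533), without repeat replicate 2 (0.083) and without on-doxycycline replicates 2 or 4 (0.073 and 0.0871).

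Of 21 genes of CD8 T cells, NK cells and cytotoxic granules 1 rose (median 0.20), against 11.0% of all genes. It was the chemokine Xcl1 (0.96 ± 0.27, adjusted p = 0.0203), which calls cross-presenting dendritic cells. With the on-doxycycline lung below background raised to that level its difference was 0.83. It missed the threshold on the median gene (adjusted p = 0.0641) and without repeat replicates 2 or 4 or on-doxycycline replicates 1 or 4 (adjusted p = 0.0512 to 0.0788). Cd8a had 1.10 ± 0.38 (adjusted p = 0.0646) and was above background in 1 on-doxycycline lung and 3 repeat lungs. It passed without on-doxycycline replicate 3 (1.55, adjusted p = 0.00232) and with sex as a covariate (adjusted p = 0.0358). Gzmb, the killing enzyme granzyme B, had 0.32 ± 0.49 (adjusted p = 0.743), and -0.01 without on-doxycycline replicate 4.

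Of 11 measured B and plasma cell genes 8 rose (median 1.23). The summed level of the B cell markers ran from 8.83 to 10.51 on doxycycline and from 10.87 to 11.17 after the repeat. Cd79b, a signalling chain of the B cell receptor, was at 7.95, 8.01, 8.62 and 7.27 and at 9.10, 9.59, 9.74 and 9.75 (1.58 ± 0.38, 2.99-fold, adjusted p = 0.00775). Cd79a, its partner, was at 7.76, 8.18, 8.67 and 7.08 and at 9.27, 9.19, 9.15 and 9.16 (1.27 ± 0.30, adjusted p = 0.00654). In both genes on-doxycycline replicate 4 was lowest and replicate 3 highest of their group, and no lung crossed into the other group. How far these cell markers and the other rises depend on each other was not tested.

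Spib, a transcription factor of B cells and plasmacytoid dendritic cells, was at 6.31, 6.39, 6.99 and 5.85 and at 7.54, 7.66, 7.61 and 7.67 (1.23 ± 0.24, adjusted p = 0.00208). Ms4a1, which encodes CD20, rose by 1.35 ± 0.42 (adjusted p = 0.0402) with overlapping lungs, lost under both scalings (adjusted p = 0.0672 and 0.057) and without each lung but on-doxycycline replicate 3 (adjusted p = 0.0528 to 0.169).

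Of the plasma cell markers only Tnfrsf17 and Xbp1 were measured, and both were called higher. Tnfrsf17, which encodes the plasma cell receptor BCMA, stood at 4.94, 5.26, 4.97 and 4.85 after the repeat. All 4 on-doxycycline lungs were at or below background, so only a bound can be given, a difference of at least 0.72 log2 units (adjusted p = 0.000969 on the measured values, whose means were 2.91 and 5.01). Xbp1, a factor of secretory cells and of the unfolded protein response, rose from 10.89, 10.75, 10.86 and 10.72 to 11.56, 11.48, 11.60 and 11.54 (0.74 ± 0.16, adjusted p = 0.00376). The spread within each group was small beside that gap. Of 8 lymphoid tissue chemokine and lymphotoxin genes none was called. Ccl19, a chemokine of T cell zones, came closest with 1.25 ± 0.41 (adjusted p = 0.0517). Ccl19 passed with sex as a covariate, with the trended prior, with voom, with the compared groups alone and without on-doxycycline replicate 3 (adjusted p = 0.0102 to 0.0486).

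Irf4 had the smallest p of the 773 genes. This factor, needed by plasma cells and by lymphocytes after activation, was at 6.10, 5.92, 6.44 and 5.69 on doxycycline and at 8.37, 8.53, 8.63 and 8.77 after the repeat. The repeat lungs stood nearly 2 log2 units above the highest on-doxycycline lung, and the difference was 2.54 ± 0.31 (5.8-fold, adjusted p = 6.88e-05). Lax1, an adaptor that dampens lymphocyte receptor signals, was at 6.49, 6.64, 6.91 and 5.90 and at 8.43, 9.02, 8.82 and 8.81 (2.29 ± 0.34, 4.89-fold, adjusted p = 0.000336).

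Chemokines and receptors of monocytes and other leukocytes rose in part, with 4 of 17 called (median 0.84). Ccl8, a ligand for monocytes and T cells, was at 6.65, 5.64, 8.90 and 5.69 on doxycycline and at 9.66, 9.26, 10.03 and 9.31 after the repeat (2.85 ± 0.59, 7.2-fold, adjusted p = 0.00324). On-doxycycline replicate 3 was more than 2 log2 units above the others of its group and still below every repeat lung. Cx3cr1, the fractalkine receptor of monocytes, rose by 0.94 ± 0.20 (adjusted p = 0.00401). Ccr6, a receptor of B cells and Th17 cells, rose from 7.16, 7.24, 7.53 and 6.28 to 7.95, 8.09, 8.18 and 7.90 (0.98 ± 0.23, adjusted p = 0.00775). Its ligand Ccl20, which epithelium makes, rose by 1.72 ± 0.55 (adjusted p = 0.0452), lost under both scalings (adjusted p = 0.0643 and 0.0641) and without each lung but on-doxycycline replicate 3 (adjusted p = 0.0568 to 0.131).

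Identity genes of macrophages stayed near the median of the panel. Of 14 measured 1 rose (median 0.05), Csf1r, the receptor for macrophage growth factor (0.46 ± 0.13, adjusted p = 0.029). It missed the threshold under both scalings (adjusted p = 0.214 and 0.0539), without repeat replicates 2 or 4 and without on-doxycycline replicates 2, 3 or 4 (adjusted p = 0.0515 to 0.1). No gene of 12 for neutrophil chemokines and products was called (median -0.23). Cxcr2, a neutrophil receptor and the single neutrophil marker measured, was at 8.98, 8.67, 6.24 and 7.93 on doxycycline and at 5.82, 6.87, 7.41 and 6.34 after the repeat (-1.35 ± 0.63, adjusted p = 0.173), so its groups overlapped. Without on-doxycycline replicate 3 the Cxcr2 difference was -1.92 and passed (adjusted p = 0.0393).

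Itln1, a lectin of mucosal epithelium, had the second largest difference and, among the genes called higher, the largest standard error. It stood at 6.66, 6.55, 6.18 and 3.94 on doxycycline and at 11.08, 8.31, 8.54 and 8.17 after the repeat. Every repeat lung was higher, and replicate 1 exceeded the other 3 by more than 2 log2 units (3.19 ± 0.87, adjusted p = 0.0193). With on-doxycycline replicate 4, which was below background, raised to that level the difference was 8.89-fold. The call was lost without repeat replicate 1 (2.51, adjusted p = 0.0778) and without on-doxycycline replicate 4 (2.56, adjusted p = 0.0979). None of the other 3 measured epithelial genes was called.

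Chaperones moved in both directions. Hspb1, a small heat shock protein, was at 11.23, 11.16, 11.03 and 12.10 on doxycycline and at 10.55, 10.56, 10.51 and 10.17 after the repeat, without overlap. Its log2 difference was -0.93 ± 0.22 (adjusted p = 0.00692). Hsp90aa1, the inducible cytosolic HSP90, was at 13.43, 13.30, 13.03 and 13.63 and at 12.48, 12.73, 12.77 and 12.49 (-0.73 ± 0.14, adjusted p = 0.0021). By contrast Hsp90b1, the HSP90 of the endoplasmic reticulum, rose from 12.74, 12.69, 12.92 and 12.65 to 13.42, 13.74, 13.43 and 13.51 (0.77 ± 0.16, adjusted p = 0.00343). These 3 genes kept their calls under both scalings and without each lung. Of 10 genes of heat shock and endoplasmic reticulum stress 3 rose and 2 fell, and besides Hsp90b1 and Xbp1 the third rise was that of the stress kinase Eif2ak3 (0.42 ± 0.14, adjusted p = 0.0464, named after its values were seen). It was lost under both scalings (adjusted p = 0.36 and 0.0938) and without each lung but repeat replicate 3 (adjusted p = 0.062 to 0.123).

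The other 2 falls were smaller. Bdkrb2, a bradykinin receptor, had -0.59 ± 0.16 (adjusted p = 0.0193) and lost its call without repeat replicates 2 or 4 or on-doxycycline replicate 4 (adjusted p = 0.0752, 0.053 and 0.0871). Ctsl, a lysosomal protease, had -0.37 ± 0.11 (adjusted p = 0.0349) and lost it in the fit with the compared groups alone (0.0582), without repeat replicates 1, 2 or 4 and without on-doxycycline replicates 1 or 4 (adjusted p = 0.0568 to 0.113). No gene was called among 14 of cell death, 9 of oxidative stress, 12 of eicosanoids, 11 of complement and coagulation, 7 of glucose and lipid metabolism, 7 of endothelium and mesenchyme and 9 of ubiquitin ligation. The medians of these 7 lists lay between -0.44 and 0.19.

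Levels of liver transcripts moved with 1 lung rather than with the groups. Of 5 measured none was called (median -1.40). Cyp2e1, a liver cytochrome, was at 11.15 in on-doxycycline replicate 1 and at 6.16 to 6.57 in the others, against 5.77 to 6.77 after the repeat.

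Female and male lungs were compared within the same contrast. All 85 genes called higher had a positive difference in the 2 female lungs and in the 2 male lungs of each group, with medians of 1.00 and 0.87. The calls came from these same lungs, and 81 of the genes had no overlap between the groups. For those 81 the sign in each sex was fixed in advance, so it does not show that both sexes respond alike. No gene passed the test of the interaction of sex and group by limma (smallest adjusted p = 0.387, 49 genes at an unadjusted p under 0.05). Nlrc5 had 1.87 in females and 1.06 in males, and Tnfrsf17 had 1.58 and 2.62 on the measured values.

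To see whether the vector made a difference, repeat AAV-hSPBTLR9i lungs were compared with repeat AAV-hSPB lungs, both taken 7 days after their second dose. Limma called no gene (0.0% of 773, smallest adjusted p = 0.723, 51 at an unadjusted p under 0.05), and voom called 0. Of the 85 genes higher than on doxycycline 62 were lower after repeat AAV-hSPBTLR9i than after repeat AAV-hSPB (72.9%, median -0.14), against 56.9% of all genes (median -0.03). Their 95% intervals, unadjusted, reached 0.45 log2 units to either side in the median.

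Irf4 was at 8.57 ± 0.17 after repeat AAV-hSPBTLR9i and at 8.45 ± 0.90 after repeat AAV-hSPB (SD, n = 4), a difference of 0.13 with a 95% interval from -0.53 to 0.78. Gbp3 differed by -0.53 (interval -1.02 to -0.05) and Tap1 by -0.45 (-0.85 to -0.05), each with adjusted p = 0.723. Of the 85 genes 10 had an unadjusted p under 0.05, all lower after repeat AAV-hSPBTLR9i (11.8%, against 6.6% of all genes). Over the whole panel 45 of the 51 genes with such a p were lower too, so that direction was not particular to the 85. Cxcl9 differed by -0.30 (-1.70 to 1.10), and its repeat AAV-hSPB lungs ran from 7.66 to 10.42 around the narrower 8.38 to 9.11 of the other vector. A missed threshold does not show that both vectors act alike.

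**Figure D3:**
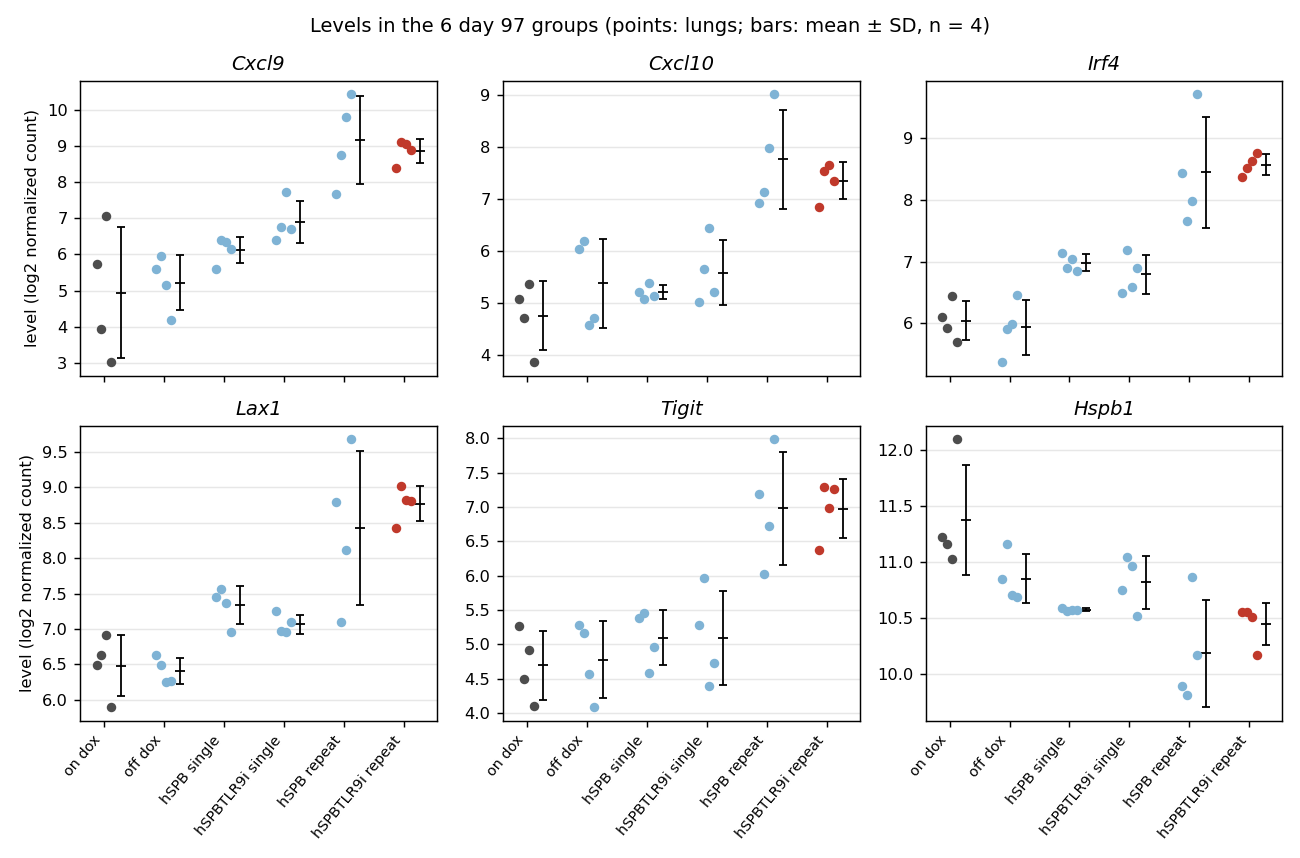
Log2 level (y axis) of Cxcl9, Cxcl10, Irf4, Lax1, Tigit and Hspb1 in the 4 lungs of each day 97 group (x axis), with mean ± SD. Repeat AAV-hSPBTLR9i lungs (red) overlap with repeat AAV-hSPB lungs in each gene, and in all but Hspb1 they lie above the 4 single-dose AAV-hSPBTLR9i lungs.

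Against a single dose of the same vector, the repeat lungs had 3 genes called higher (0.388% of 773) and 0 lower, with 60 at an unadjusted p under 0.05. Repeat lungs were taken 7 days and single-dose lungs 97 days after the last dose, so the number of doses and the time since the last one cannot be told apart. Irf4 was at 6.79 ± 0.32 after the single dose (SD, n = 4) and 1.78 ± 0.31 higher after the repeat (SE, adjusted p = 0.0104). Lax1 was at 7.07 ± 0.14 and 1.70 ± 0.34 higher (adjusted p = 0.0296), and Tigit at 5.09 ± 0.69 and 1.88 ± 0.40 higher (adjusted p = 0.0303). For all 3 genes no single-dose lung reached the lowest repeat lung. The 3 differences stayed between 1.62 and 2.17 under all alternatives in which they were tested, but calls were lost. Irf4 kept its call in 13 of 16, and lost it without repeat replicate 4 and without single-dose replicates 1 or 3 (adjusted p = 0.0606, 0.0677 and 0.0614). Lax1 kept it in 7 of 16 and Tigit in 7 of 15. Lax1 and Tigit lost it with all 12 reference genes (adjusted p = 0.054 and 0.0543), with the matrix values on the same scale (0.0527 and 0.053) and without any of repeat replicates 2, 3 and 4 and single-dose replicates 1, 3 and 4, and Lax1 also without single-dose replicate 2 (adjusted p = 0.0601 to 0.163).

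The other genes that led against doxycycline missed the threshold against the single dose. Cxcl9 was 1.96 ± 0.67 higher (adjusted p = 0.379) and Cxcl10 1.77 ± 0.44 (adjusted p = 0.112). Of the 85 genes 84 had a positive difference from the single dose (98.8%, median 0.42), against 53.9% of all genes (median 0.02). These 85 were chosen as high in the same repeat lungs, so part of that excess follows from the choice.

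**Figure D4:**
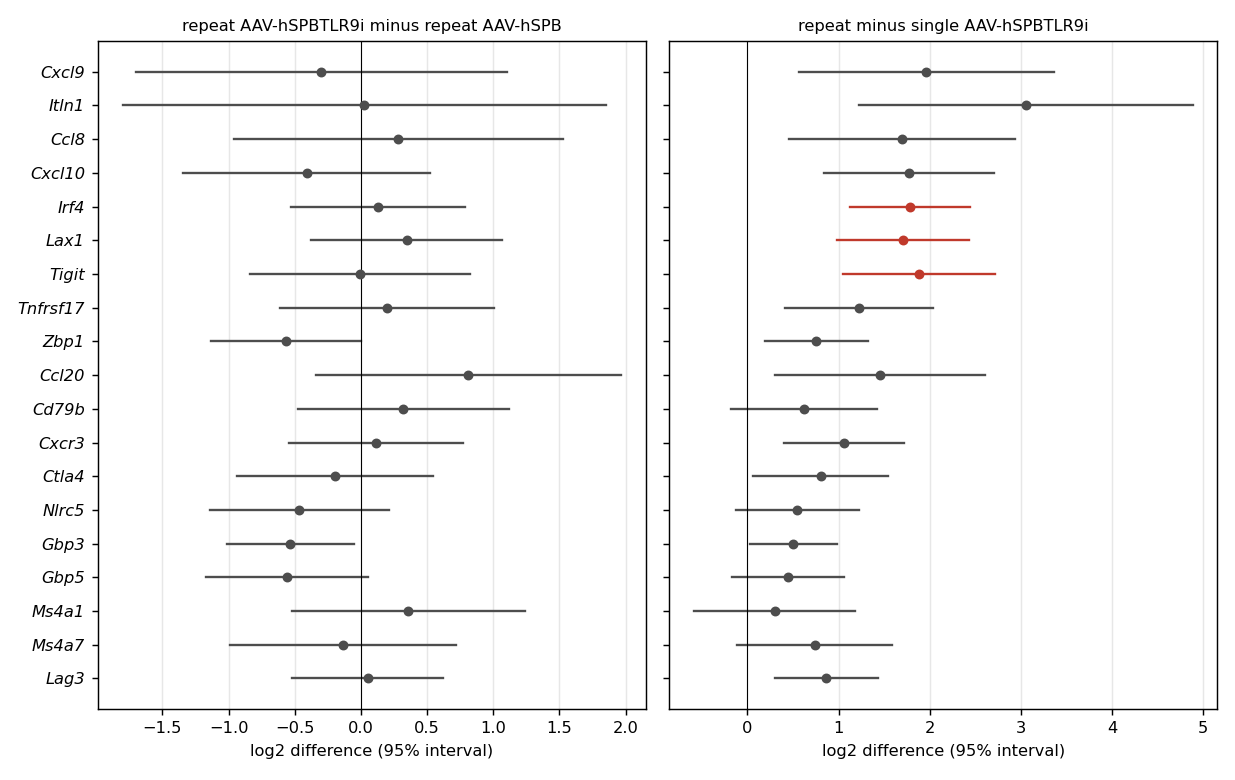
Log2 differences (x axis) with 95% intervals of the 19 largest rises above background (y axis), for repeat AAV-hSPBTLR9i against repeat AAV-hSPB (left) and against single-dose AAV-hSPBTLR9i (right). On the left 17 intervals take in 0 and none passed after adjustment, and on the right Irf4, Lax1 and Tigit (red) passed.

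Lungs off doxycycline since day 94 without vector gave the third reference. Against them 112 genes were called higher and 25 lower after repeat AAV-hSPBTLR9i (14.5% and 3.23%). The on-doxycycline and off-doxycycline comparisons share the repeat lungs, so their values are given side by side and not as a replication. Of the 85 genes higher than on doxycycline 63 were also called higher than off it, and of the 4 lower genes 1, Bdkrb2. Irf4 was 2.65 ± 0.31 higher than off doxycycline (adjusted p = 3.54e-05) and 2.54 than on it, and Lax1 2.36 ± 0.34 (adjusted p = 0.000432) and 2.29. Cxcl9 had 3.63 ± 0.67 (adjusted p = 0.00209) and 3.91. Gbp5 had 0.69 ± 0.29 (adjusted p = 0.109) and 1.37, and H2-DMa 0.39 (adjusted p = 0.069) and 0.95. The chaperones also differed less, with Hspb1 at -0.41 ± 0.22 (adjusted p = 0.22) against -0.93, and Hsp90aa1 at -0.19 (adjusted p = 0.404) against -0.73. Of the 16 genes of the T cell receptor complex and its signalling, 8 were called higher than off doxycycline (median 0.64) and 2 higher than on it (median 0.32). Whether these effects differ between the references was not tested.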

How the data were processed

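Right-lung RNA of 24 day 97 samples was analysed as 6 groups of 4, taken from the labels. The log2 normalized counts were used as deposited by the authors, and the linear counts beside them equal the log2 values raised back. Background treatment, software and choice of reference genes are not given in the sources used here. Their scale matches, from the values, a constant mean over 6 of 12 reference genes. The series matrix signal values that the authors deposited were found scaled to all 12 for the 757 genes matched, and served as an alternative and for the control probes. Another 9 columns of per-sample values, from lungs taken at 3 h, were not used.

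Whole counts were recovered as multiples of a factor per lung (100% whole within 0.1 counts). All 24 lungs were fitted in one model (limma 3.58.1, R 4.3.3: lmFit, then contrasts.fit and eBayes, unfiltered and without covariates, 18 residual degrees of freedom), and p-values were adjusted by Benjamini and Hochberg over 773 genes with a threshold of 0.05. Data were simulated for this comparison on 773 genes as independent normal values, with the same mean and spread in every group but for the shifts. The test recovered 47.1% of genes shifted by 0.5 log2 units, 82.0% of those shifted by 1 and 96.3% of those shifted by 2. Of its calls 3.42% were false. The real groups differ in spread and depth, so these rates may not hold for the calls reported here. Alternatives were voom on the recovered counts, 2 other scalings, the matrix values, leaving out each lung, fitting the 2 groups alone, a robust prior with a trend, a sex term, and dropping the dimmest 25% of genes. Values with ± are standard errors unless SD is named. Tables were made with numpy 2.4.6 and pandas 2.3.3 and figures with matplotlib 3.10.9, under Python 3.11.15.

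The comparison, the gene lists and the markers were chosen with earlier results of these data known. Genes were named by a rule: the 20 largest rises and 10 largest falls called, up to 4 called members of each list with the smallest p, the 2 members with the smallest p of a list without calls, the 5 called genes with the smallest p of each other comparison, and some genes set by hand for interferons, cytokines, chemokines and lymphocytes. Some genes the rule selects are not reported here. Genes named outside it are marked as chosen after their values were seen, except markers and genes mentioned only within a count.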

Additional observations from a re-analysis of the deposited data

Results flagged for a closer look

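Among the genes named by the rule and reported here, a lung lay far from the other 3 of its group in 8 of 186 gene-by-group sets, judged by Dixon's ratio of gap to range at the 95% level. Chance alone gives such a gap in about 1 of 20 sets. Of these, 3 belong to on-doxycycline replicate 1 and to genes high in liver. Serpina1a was at 15.41 in it (others 9.03 to 9.59), Cyp2e1 at 11.15 (6.16 to 6.57) and H2-Q10 at 11.09 (3.48 to 4.25). None of these genes was called in the comparison.

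The other 5 were spread over genes and lungs. Itln1 was at 11.08 in repeat AAV-hSPBTLR9i replicate 1 (others 8.17 to 8.54). Hspb1 was at 10.17 in repeat replicate 4 (10.51 to 10.56) and Tnf at 5.85 in repeat replicate 2 (6.31 to 6.36). Il1b was at 7.93 in on-doxycycline replicate 3 (8.95 to 9.15), and Ptger4, a prostaglandin E2 receptor, at 5.14 in on-doxycycline replicate 4 (6.12 to 6.20).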

How the results depend on the processing

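Against on doxycycline, 85 genes were called higher, 53 when scaled to the median gene and 53 to 99 when each lung was left out, and the cause was not tested. The 4 lower calls became 37 on the median gene, 18 with all 12 reference genes, 18 with the series matrix values, 7 without the lowest 25% of genes, 7 with sex as a covariate, 7 with the trended prior, 8 with the 2 groups alone, 9 with voom and 2 to 12 with a lung left out. Both scalings shift all genes down, and so move calls from higher to lower by construction. Against the single dose, the 3 higher calls became 1 with all 12 reference genes, 1 with the matrix values, 14 with the 2 groups alone and 0 to 3 with a lung left out, with 0 lower throughout the omissions. Against off doxycycline, the 112 higher calls became 53 on the median gene, 66 with 12 reference genes, 63 with the matrix values, 70 with the 2 groups alone and 47 to 134 with a lung left out, and the 25 lower calls became 45 on the median gene, 2 with the 2 groups alone and 6 to 46. The comparison of both repeat vectors gave 0 to 0 calls when a lung was left out. Of 59 named called genes, 59 kept their call with sex, the trended prior and voom, 55 with the 2 groups alone, 50 with all 12 reference genes, 46 on the median gene, 49 of 58 with the matrix values and 47 of 47 without the lowest genes.

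Signs turned in 4 named genes, none called in the comparison. The Gzmb difference ran from -0.00713 (without on-doxycycline replicate 4) to 0.578 when a lung was left out, and that of H2-Q10 from -2.03 to 0.511 (without on-doxycycline replicate 1). Myc had -0.0664 on the median gene. Myd88 had -0.138 on the median gene, -0.0118 with all 12 reference genes and with the matrix values, -0.0166 without repeat replicate 1 and -0.0292 without on-doxycycline replicate 4, up to 0.113 without another lung. No paired analysis was possible because the sample numbers in the labels are unique and pair no lungs across groups. Signal near background limits Ifng, Ifnb1, Ifna4, Il6, Il10, Cd8a, Gzmb, Ccr8 and Cd70, whose changes were not measurable or only in part.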
